A study of Mus musculus with 4 samples.

Results

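Serpins are a family of proteins with a shared fold, most of which trap a serine or cysteine protease by offering it an exposed reactive loop as bait. The 35 genes described here are the members of the mouse serpin clades A, B, E, F, H and I among the 13903 genes of the deposited table, chosen by gene name alone. Serpinf2 and the other serpins of coagulation and complement were left out. Of the 35, 20 belong to clade A, 10 to clade B, 2 to clade E and 1 each to clades F (Serpinf1), H (Serpinh1) and I (Serpini1). The level needed for a comparison, a 4-library mean of 10 CPM or more, was reached by 20 members, of which 14 are in clade A and 6 in clades B, E, F1 and H1. Just above this limit were Serpinb6b (mean 10.2 CPM) and Serpina3g (13.8 CPM), and below it was Serpina3f (5.41 CPM).

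RNA was measured by bulk mRNA-seq of liver from C57BL/6J mice of the type OGT-Floxed, all fed the CDE diet, which is choline-deficient and ethionine-supplemented and injures the liver. Mice labelled OGT-KO received AAV8-TBG-CRE and mice labelled control received AAV8-TBG-eGFP. OGT is the enzyme that attaches O-GlcNAc to proteins, and the TBG promoter restricts Cre to hepatocytes, so other liver cells keep the floxed gene. Livers were taken with no recovery or at the time labelled 7 Day recovery. Each of the 4 conditions is 1 library of equal parts of RNA from 3 mice. There is thus no replicate error, and differences between libraries were given as values with exact counting intervals, which cover counting error only. The labels used here give neither age nor sex.

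The libraries held 19972699 to 22866431 reads on the listed genes, and 3 reads, the floor used here, corresponded to 0.131 to 0.150 CPM. With no recovery Ogt was listed at 64.7 CPM under the control label and 55.3 CPM under the OGT-KO label, and after 7 days at 55.7 and 77.7 CPM. As deposited, the value after 7 days goes against the label. That difference is about the size of the all-gene median given next, so its direction depends on the scaling. How much of a deleted Ogt transcript is counted is not known from these values, so the libraries are named by their labels throughout. Over the 8963 genes compared, the difference between OGT-KO and control had a median of 0.51 on the log2 scale with no recovery, and of 0.48 after 7 days. Scaling the libraries by median ratio moved this median by -0.70 and -0.66, so each serpin was also compared under that scaling.

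Clade A holds the serpins that hepatocytes secrete into plasma, such as α1-antitrypsin, which protects tissue from neutrophil elastase, and the non-inhibitory carriers of cortisol and thyroxine. Clade B serpins lack a classical secretion signal and guard cells against their own cathepsins and granzymes. Clade E serpins inhibit plasminogen activators and thrombin, Serpinf1 (PEDF) is a secreted non-inhibitory serpin, and Serpinh1 (HSP47) is the collagen chaperone of the endoplasmic reticulum. The promoter used in both viruses is that of thyroxine-binding globulin, the product of the clade A gene Serpina7.

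The largest family by reads was Serpina1, which has 5 paralogs of α1-antitrypsin in this table. Their coding sequences in GENCODE M21 were all 1239 bases long and 96.3% to 98.5% identical in pairs, and 86 positions differed among them. The 48-base window with the most such positions lies near the 3′ end of the coding sequence, where the reactive loop that meets the protease is encoded, and is shown because these bases allow reads to be told apart. It covers coding bases 1114 to 1161 of each paralog, and the 17 positions that differ among the 5 are in capitals.
Serpina1a: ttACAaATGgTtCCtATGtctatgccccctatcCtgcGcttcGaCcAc
Serpina1b: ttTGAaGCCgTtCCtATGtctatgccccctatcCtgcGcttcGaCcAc
Serpina1c: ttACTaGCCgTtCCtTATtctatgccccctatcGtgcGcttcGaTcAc
Serpina1d: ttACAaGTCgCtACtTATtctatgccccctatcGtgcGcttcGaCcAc
Serpina1e: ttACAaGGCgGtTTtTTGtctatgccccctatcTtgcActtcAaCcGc

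Serpina1e had 24 coding positions with a base found in no other paralog, Serpina1d had 19, Serpina1b 17, Serpina1c 7 and Serpina1a 6. Reads that cover no position at which the paralogs differ fit all of them, and how such reads were counted is not given in the sources used here. Single paralogs are therefore uncertain, most of all Serpina1a and Serpina1c, and the sum over the 5 is the firmer value.

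The promoters of the 5 paralogs are also near copies of each other, and are shown because the genes differed in size of change. Each line is a 115-base stretch from the RefSeq promoter windows of GRCm38.p6, on the minus strand of chromosome 12, and the capitals mark the 10 positions at which the paralogs differ.
Serpina1a: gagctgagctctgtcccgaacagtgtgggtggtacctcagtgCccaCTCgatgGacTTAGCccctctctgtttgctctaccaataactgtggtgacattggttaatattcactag
Serpina1b: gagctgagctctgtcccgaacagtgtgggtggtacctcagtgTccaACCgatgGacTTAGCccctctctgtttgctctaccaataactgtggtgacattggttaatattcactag
Serpina1c: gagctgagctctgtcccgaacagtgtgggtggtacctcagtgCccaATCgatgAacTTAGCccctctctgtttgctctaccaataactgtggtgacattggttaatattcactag
Serpina1d: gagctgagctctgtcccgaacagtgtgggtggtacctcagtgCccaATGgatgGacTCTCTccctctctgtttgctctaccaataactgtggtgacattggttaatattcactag
Serpina1e: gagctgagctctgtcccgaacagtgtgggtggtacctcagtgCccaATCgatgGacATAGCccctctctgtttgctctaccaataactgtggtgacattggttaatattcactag

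The stretches lie at chr12:103863626-103863740 for Serpina1a, chr12:103738201-103738315 for Serpina1b, chr12:103904963-103905077 for Serpina1c, chr12:103773635-103773749 for Serpina1d and chr12:103956961-103957075 for Serpina1e. Counted from the 5′ end of the stretch and with Serpina1e first, 1 substitution, A57T, set Serpina1e apart from the other 4. Serpina1a and Serpina1c each differed from Serpina1e at 2 bases, Serpina1b at 3 and Serpina1d at 6. The stretch ends 64 bases before the annotated start of Serpina1e and 2 to 13 bases before those of the other 4, so the RefSeq windows of the paralogs do not cover the same bases. Motifs were searched on both strands of the 300-base windows, which 28 members have. The AP-1 motif TGANTCA was found in 5 of the 32 member windows (15.6%), beside 7.81% of all 32851 RefSeq promoter windows. They were those of Serpinb8 and of Serpina1a to Serpina1d, which are near copies and so do not count separately. The STAT motif TTCNNNGAA was found in 7 of the 32 (21.9%), beside 8.30% of all windows. These belonged to 5 of the 28 genes (Serpina11, Serpina3f, Serpina3g, Serpina3i and Serpinb6a), beside 2582 of 27025 genes over all windows. Serpina3f, Serpina3g and Serpina3i are paralogs of 1 family and so may not count separately. The CEBP motif TTGCGCAA was found in Serpina5 alone, and the HNF4 motif CAAAGTCCA in 0 members, beside 0.183% and 0.475% of all windows.

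The Serpina1 family was lower in OGT-KO than in control at both times, and its most abundant member differed the most. Summed over the 5 paralogs, Serpina1 had 29331 CPM in control with no recovery, 4347 CPM in OGT-KO with no recovery, 26907 CPM in control after 7 days and 4975 CPM in OGT-KO after 7 days. The sum was 6.75-fold lower with no recovery and 5.41-fold lower after 7 days, and both controls stood far above both OGT-KO libraries. As a share of all reads on listed genes, the family took 2.93% in control (95% exact Clopper-Pearson interval 2.93% to 2.94%) and 0.435% in OGT-KO (0.432% to 0.437%) with no recovery. After 7 days the shares were 2.69% (2.68% to 2.70%) in control and 0.498% (0.495% to 0.500%) in OGT-KO.

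Serpina1e was listed at 14115 CPM in control and 448 CPM in OGT-KO with no recovery, and at 11735 and 306 CPM after 7 days. The gene (ENSMUSG00000072849) ranked 5th and 6th among all listed genes by CPM in the controls, but 209th and 384th in the OGT-KO libraries. The ratio was 31.5-fold lower with no recovery (95% exact counting interval 30.9 to 32.1) and 38.3-fold lower after 7 days (37.4 to 39.2), the largest ratios among the 20 serpins compared.

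Serpina1d had 3138, 236, 3052 and 500 CPM in control and OGT-KO with no recovery and in control and OGT-KO after 7 days, in that order, which is also the order of the series of 4 values below. It was 13.3-fold lower with no recovery and 6.10-fold lower after 7 days. The other paralogs differed by smaller ratios. Serpina1a had 2498, 532, 2471 and 771 CPM and was 4.70-fold and 3.20-fold lower. Serpina1c had 4576, 1226, 4724 and 1337 CPM and was 3.73-fold and 3.53-fold lower. Serpina1b had 5003, 1905, 4925 and 2061 CPM and was 2.63-fold and 2.39-fold lower, the smallest ratios of the family. For all 5 paralogs both control libraries stood above both OGT-KO libraries, as they did for 12.9% of all listed genes.

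The order of the paralogs within the family differed between the labels. Serpina1e made up 48.1% of Serpina1 reads in control with no recovery and 43.6% after 7 days, against 10.3% and 6.16% in OGT-KO. Serpina1b made up 17.1% and 18.3% in the controls and was the leading paralog in OGT-KO, at 43.8% and 41.4%. Serpina1c went from 15.6% and 17.6% to 28.2% and 26.9%, and Serpina1a from 8.52% and 9.18% to 12.2% and 15.5%. Serpina1d held 10.7% and 11.3% in the controls, 5.43% in OGT-KO with no recovery and 10.05% in OGT-KO after 7 days. These shares do not depend on the scaling of the libraries, but they do depend on how shared reads were assigned.

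**Figure D1:**
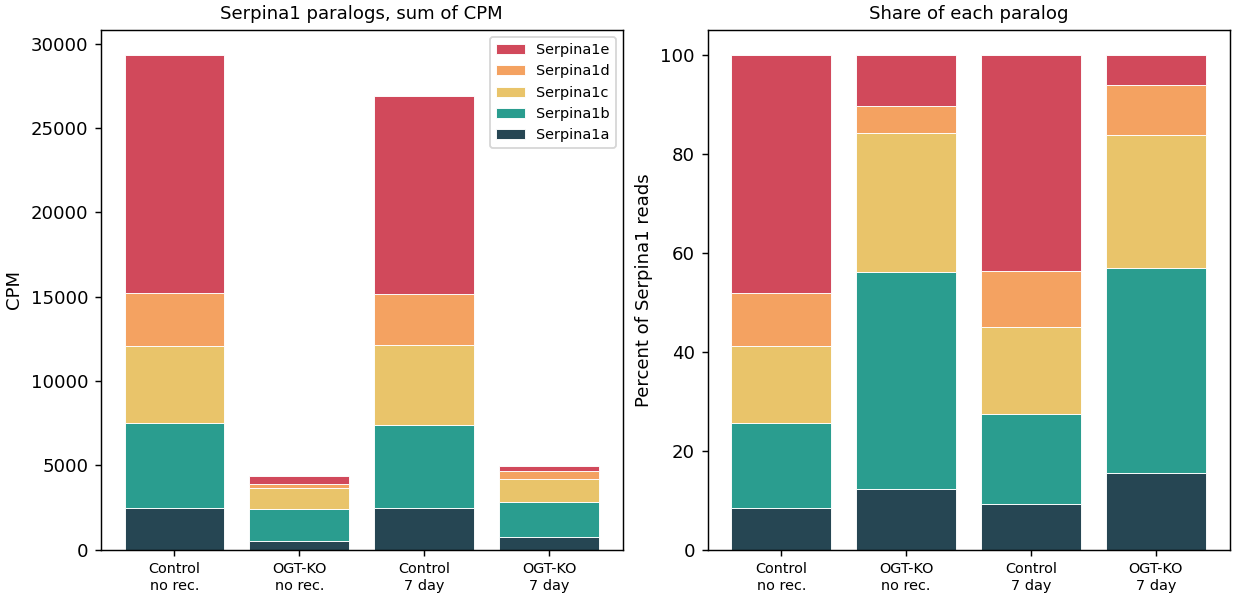
Stacked bars of the 5 Serpina1 paralogs in the 4 libraries, as CPM on the left and as percent of Serpina1 reads on the right. The bars reach 29331 and 26907 CPM in control and 4347 and 4975 CPM in OGT-KO, and the Serpina1e segment is 48.1% and 43.6% against 10.3% and 6.16%.

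The Serpina3 family, the mouse relatives of α1-antichymotrypsin, was lower as a sum but its members did not move together. The sum over 8 paralogs was 11871, 3256, 12574 and 2680 CPM, or 3.65-fold lower in OGT-KO with no recovery and 4.69-fold lower after 7 days. The coding sequences of these paralogs are less alike than those of Serpina1, with a median identity of 76.8% over 28 pairs. Serpina3k alone made up 96.1% of Serpina3 reads in control with no recovery and 92.8% after 7 days, against 72.9% and 75.6% in OGT-KO.

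Serpina3k, a plasma serpin related to kallikrein inhibitors, had 11414, 2373, 11668 and 2025 CPM. It stood 6th and 7th among all listed genes in the controls and 32nd and 39th in the OGT-KO libraries, and was 4.81-fold lower with no recovery (4.76 to 4.85) and 5.76-fold lower after 7 days (5.70 to 5.82).

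Serpina3n, an acute-phase serpin that inhibits elastase-like proteases and granzyme B, had 342, 577, 705 and 439 CPM. Here the groups overlapped. OGT-KO was above control with no recovery (log2 fold change 0.75) and below it after 7 days (-0.68), neither of which reached 2-fold, and with median-ratio scaling the values were 0.03 and -1.37.

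Serpina3m had 95.9, 270, 178 and 192 CPM. It was 2.82-fold higher in OGT-KO with no recovery and only 1.08-fold higher after 7 days, where the control library was higher than with no recovery. With median-ratio scaling its log2 fold changes were 0.77 and -0.57, so the direction after 7 days depends on the scaling.

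Serpina3g, an intracellular member known from leukocytes that inhibits cathepsins, had 7.24, 23.4, 8.96 and 15.5 CPM. It was 3.22-fold higher in OGT-KO with no recovery (2.69 to 3.88) and 1.73-fold higher after 7 days. Both OGT-KO libraries were above both controls, as for 74.4% of all listed genes. Serpina3g passed the filter on level only through the OGT-KO libraries. With median-ratio scaling its log2 fold changes were 0.90 and 0.09, both under 2-fold. Of the scarce members, Serpina3c had 3.10, 1.01, 4.66 and 1.02 CPM and was 3.09-fold lower (1.89 to 5.20) and 4.57-fold lower (2.87 to 7.56). Serpina3a had 10 to 32 reads, Serpina3i 40 to 70 and Serpina3f 100 to 165 in a library.

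Both hormone carriers of clade A differed with no recovery, in opposite directions. Serpina6, corticosteroid-binding globulin, had 126, 18.8, 146 and 109 CPM. The OGT-KO library with no recovery was the lowest, at 6.71-fold below its control (6.06 to 7.45), and after 7 days OGT-KO was 1.34-fold below control (1.27 to 1.42). With median-ratio scaling the Serpina6 log2 fold change after 7 days was -1.10, which is past 2-fold. Serpina7, thyroxine-binding globulin, had 25.0, 195, 24.3 and 59.7 CPM. It was 7.81-fold higher in OGT-KO with no recovery (7.14 to 8.57) and 2.45-fold higher after 7 days (2.21 to 2.73), the sole clade A member at least 2-fold higher at both times. With median-ratio scaling the Serpina7 log2 fold change after 7 days was 0.59, which is under 2-fold.

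The genes around these carriers were summarized from a list of 8 carriers, receptors and hormone-converting enzymes outside the serpin family. None of the 8 was 2-fold higher in OGT-KO and 2 were lower at both times, beside 19.2% higher and 3.74% lower of all genes compared. Dio1, which converts thyroxine to its active form, had 170, 1.53, 127 and 7.00 CPM, and Hsd11b1, which regenerates active glucocorticoid, had 363, 41.1, 412 and 66.2 CPM. Both were named after their values were seen. Transthyretin (Ttr), another thyroxine carrier, had 6288, 3442, 5772 and 4249 CPM, and the vitamin D carrier Gc had 4970, 3643, 5383 and 3741 CPM, all within 2-fold.

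Of the remaining clade A serpins, Serpina12 and Serpina11 were lower in OGT-KO at both times, as was Serpina9 with no filter on level. Serpina10, the protein Z-dependent inhibitor of factor Xa, had 214, 215, 245 and 176 CPM, a log2 fold change of 0.00 with no recovery and -0.48 after 7 days, or -0.71 and -1.16 with median-ratio scaling. Serpina12, the adipokine vaspin, had 65.0, 24.7, 63.2 and 5.72 CPM and was 2.63-fold lower with no recovery (2.38 to 2.90) and 11.1-fold lower after 7 days (9.22 to 13.4). Both controls were nearly equal, and the lowest library was OGT-KO after 7 days.

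Serpina11, a little-studied liver serpin, had 31.7, 11.6, 32.2 and 7.27 CPM and was 2.73-fold and 4.44-fold lower. Serpina9, known as centerin in germinal-centre B cells, had 97 reads in control and 2 in OGT-KO with no recovery, and 185 and 15 reads after 7 days. The ratio was 52.2-fold lower with no recovery, with a counting interval of 14.1 to 437, and 13.9-fold lower after 7 days (8.23 to 25.4). Serpina5, the protein C inhibitor, had 4, 24, 12 and 11 reads. Its CPM ratio of OGT-KO to control was 5.58 with no recovery (1.92 to 22.1) and 0.811 after 7 days (0.324 to 2.01).

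Counted over clade A with no recovery, 3 of the 14 members compared were at least 2-fold higher in OGT-KO and 9 were lower, beside 24.4% higher and 5.69% lower of all genes compared. After 7 days 1 was higher and 8 were lower, beside 22.9% and 4.27%. At both times 1 was higher and 8 were lower, beside 19.2% and 3.74%. With no filter on level, 3 of 20 were higher and 11 lower with no recovery, beside 33.1% and 4.35% of all listed genes, and 1 higher and 10 lower after 7 days, beside 32.3% and 3.32%. Under median-ratio scaling 1 was higher and 9 were lower with no recovery, and 0 were higher and 11 lower after 7 days, where 15.4% and 11.8% of all genes compared were lower. The 14 had a median log2 fold change of -1.38 and, after 7 days, -1.47, which lay 1.89 and 1.95 below the median of all genes compared.

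**Figure D2:**
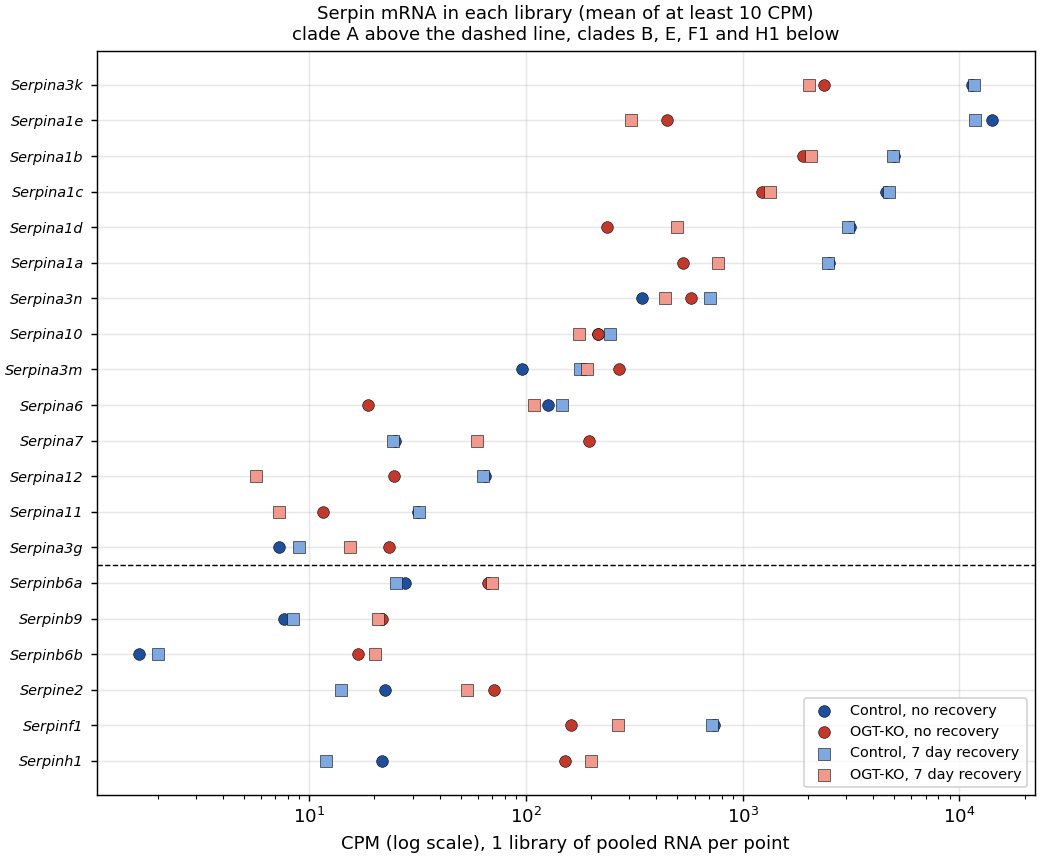
CPM on a log axis of the 20 serpins compared, 1 point per library, with clade A above the dashed line and clades B, E, F1 and H1 below. The red and pink OGT-KO points lie left of the blue control points for Serpina1a to Serpina1e and Serpina3k, and right of them for Serpinh1, Serpine2, Serpinb6a, Serpinb6b and Serpinb9.

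Clades B, E, F1 and H1 showed a different picture, in which 5 of the 6 members compared were at least 2-fold higher in OGT-KO at each time and Serpinf1 was lower. Of all genes compared, 24.4% were higher with no recovery and 22.9% after 7 days. The 6 had a median log2 fold change of 1.51 with no recovery and 1.65 after 7 days, which lay 1.002 and 1.17 above the median of all genes compared. Scarce members can pass the filter through the libraries in which they are high. Serpinb6b and Serpinb9 passed it only through the OGT-KO libraries, so the count over all 14 listed members is also given. With no filter 11 were higher and 1 lower with no recovery, beside 33.1% and 4.35% of all listed genes, and 8 higher and 1 lower after 7 days, beside 32.3% and 3.32%. At both times 8 of the 14 were higher and 1 lower, beside 26.9% and 2.83%. Under median-ratio scaling 2 of the 6 were higher with no recovery and 3 after 7 days, beside 10.4% and 11.6% of all genes compared. At both times 2 were higher and 1 lower under median-ratio scaling, beside 9.35% and 10.4%, and 3 and 1 under upper-quartile scaling, beside 11.5% and 7.12%.

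Among the clade B serpins, Serpinb6a, a cytosolic inhibitor of cathepsin G, had 27.7, 67.1, 25.2 and 70.1 CPM. It was 2.43-fold and 2.78-fold higher in OGT-KO. Its paralog Serpinb6b, whose coding sequence is 85.7% identical, had 1.65, 16.8, 2.00 and 20.3 CPM and was 10.2-fold higher with no recovery (7.23 to 14.9) and 10.1-fold higher after 7 days (7.31 to 14.3). As a family Serpinb6 had 29.3, 83.9, 27.2 and 90.4 CPM. For both genes the OGT-KO libraries were close to each other and above both controls. Of all listed genes, 74.4% had both OGT-KO libraries above both controls.

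Serpinb9, the inhibitor that shields cells from granzyme B, had 7.67, 21.7, 8.41 and 20.8 CPM and was 2.83-fold and 2.47-fold higher. With median-ratio scaling neither Serpinb9 (log2 fold changes 0.72 and 0.58) nor Serpinb6a (0.55 and 0.77) reached 2-fold. The lettered paralogs Serpinb9b, Serpinb9e, Serpinb9f and Serpinb9g, summed because some are 98.7% identical, had 1 read in control with no recovery, 155 reads in OGT-KO with no recovery, 0 reads in control after 7 days and 46 in OGT-KO after 7 days. Serpinb9f gave the most of these, with 68 reads in OGT-KO with no recovery and 25 after 7 days, against 0 in both controls. Set against a floor of 3 control reads, its level was 21.1-fold higher with no recovery and 7.38-fold higher after 7 days. Such floor ratios leave out the counting error of the OGT-KO reads, so they are not lower limits.

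Serpinb8, a cytosolic inhibitor of furin-like proteases, had 2.54, 6.25, 2.40 and 9.62 CPM and was 2.46-fold higher (1.79 to 3.43) and 4.001-fold higher (2.92 to 5.59). With median-ratio scaling its log2 fold changes were 0.46, which is under 2-fold, and 1.09. The Serpinb1 pair, inhibitors of neutrophil proteases, stayed low at 27, 83, 45 and 49 reads in all, and its ratio was above 1 only with no recovery (log2 ratio 1.51, 0.87 to 2.20, against -0.05, -0.67 to 0.56, after 7 days). Serpinb1b gave 27 and 9 reads in OGT-KO and 0 in both controls. Set against the floor of 3 control reads, it was 8.37-fold higher with no recovery and 2.66-fold higher after 7 days. These floor ratios are likewise not lower limits.

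In clade E, Serpine2 (protease nexin-1), which inhibits thrombin and plasminogen activators at cell surfaces, had 22.3, 71.2, 14.0 and 53.7 CPM. It was 3.19-fold higher (2.88 to 3.54) and 3.83-fold higher (3.36 to 4.37), with both OGT-KO libraries above both controls, as for 74.4% of all listed genes. With median-ratio scaling its log2 fold changes were 0.93 and 1.21.

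Serpinh1 had 21.7, 151, 11.9 and 199 CPM. This collagen chaperone was 6.95-fold higher in OGT-KO with no recovery (6.30 to 7.67) and 16.7-fold higher after 7 days (14.7 to 19.1), the largest ratio after 7 days among the serpins compared that were higher. Serpini1 (neuroserpin), an inhibitor of tissue plasminogen activator, had 7, 102, 2 and 87 reads and was 13.5-fold higher with no recovery (6.34 to 34.5) and 38.5-fold higher after 7 days (10.3 to 323).

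Serpinf1 was the exception outside clade A. It had 737, 162, 723 and 266 CPM and was 4.56-fold lower in OGT-KO with no recovery (4.40 to 4.73) and 2.72-fold lower after 7 days (2.64 to 2.80). It was over 2-fold lower under each scaling, with log2 fold changes of -2.90 and -2.12 with median-ratio and -2.66 and -1.92 with upper-quartile scaling. By level it also resembled the plasma serpins, since per kilobase of coding sequence it was 7th of the 20 in both controls, after Serpina1a and before Serpina3n. Because of Serpinf1 the summed CPM of clades B, E, F1 and H1 was lower in OGT-KO, at 824, 534, 790 and 652, whereas clades B, E and H1 alone summed to 87.0, 372, 66.8 and 386 CPM. Clade A summed to 41668, 8069, 40003 and 8014 CPM.

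**Figure D3:**
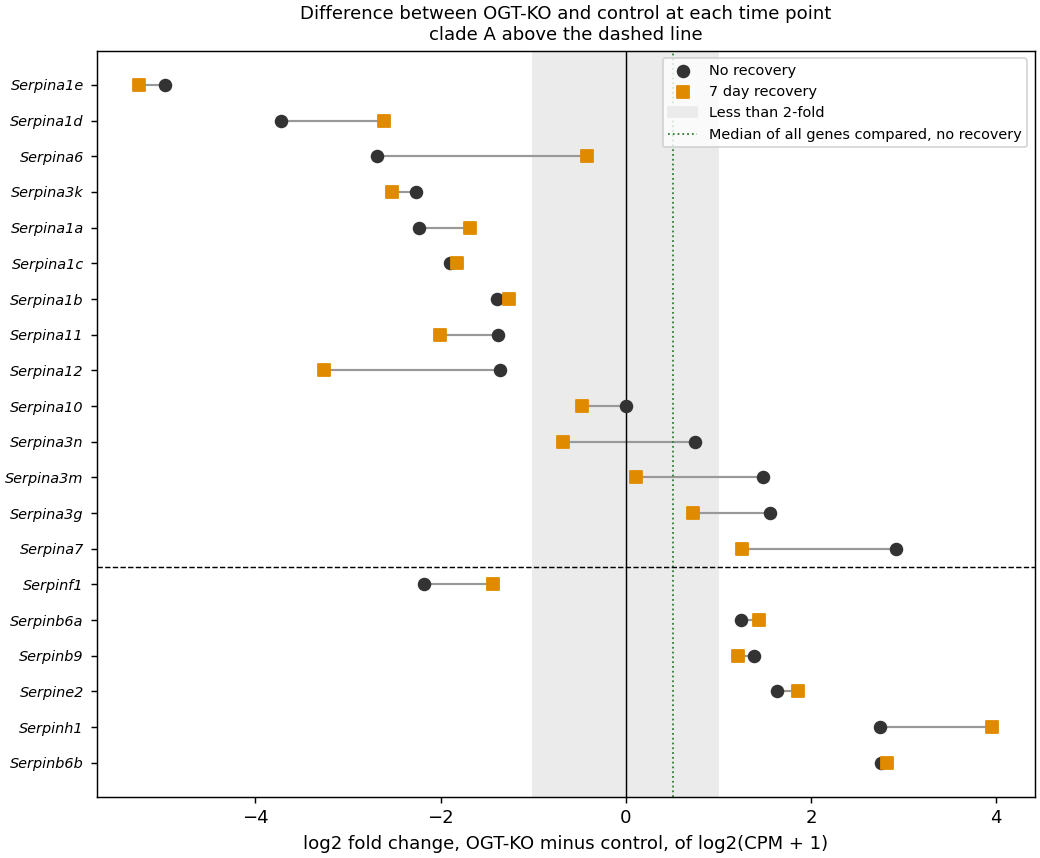
Log2 fold change, OGT-KO minus control, of log2(CPM + 1) for the 20 serpins compared, with no recovery (circles) and after 7 days (squares), clade A above the dashed line. Clade A runs from Serpina1e at -4.97 and -5.26 to Serpina7 at 2.92 and 1.26, while below the line Serpinf1 alone is negative, beside a shaded band for under 2-fold and a dotted line at the median of all genes compared with no recovery, 0.51.

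Both time points were also fitted together, with label and time as terms on the recovered reads, which lets the time points stand in for replicates and leaves 1 residual degree of freedom. At an adjusted p threshold of 0.05, edgeR's quasi-likelihood test called 1 clade A serpin higher and 10 lower, and 5 higher and 1 lower in clades B, E, F1 and H1, beside 25.0% higher and 24.1% lower of all genes compared. DESeq2 called 1 and 9, and 5 and 1, beside 20.3% and 19.8%. Serpina3n, Serpina3m and Serpina3g were called by neither. With upper-quartile scaling and no test, 3 of the 14 clade A serpins were higher and 9 lower with no recovery, and 0 and 9 after 7 days, beside 13.5% and 10.9%, then 13.6% and 8.26%, of all genes compared.

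Over all 35 members, the libraries of the 2 labels did not overlap for 29, of which 15 were higher and 14 lower in both OGT-KO libraries than in both controls. Among all listed genes 74.4% were higher in this sense and 12.9% lower. By clade the 14 lower members were 13 of the 20 clade A genes and Serpinf1, and the higher members included 8 of 10 in clade B, Serpine2, Serpinh1 and Serpini1, and 3 in clade A.

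Levels of genes were compared per kilobase of coding sequence, on the CPM scale. In control with no recovery Serpina1e led with 11392 CPM per kilobase, followed by Serpina3k with 9102 and Serpina1b with 4038. In OGT-KO with no recovery the order was Serpina3k with 1893, Serpina1b with 1538 and Serpina1c with 989, and Serpina1e was the 6th with 362. After 7 days in OGT-KO Serpina1b led with 1663, and Serpinh1, 17th in control with no recovery and 18th in control after 7 days, was 9th.

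Between the time points few serpins differed by 2-fold in the control libraries. Of the 20 compared, 1 was at least 2-fold higher after 7 days and 0 were lower, beside 0.245% and 0.960% of all genes compared. The 1 was Serpina3n, at 2.06-fold, and Serpina3m was next at 1.85-fold. With no filter on level, 1 of the 35 was higher and 1 lower, beside 0.223% and 0.964% of all listed genes.

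In the libraries labelled OGT-KO, 2 of the 20 were at least 2-fold higher after 7 days and 2 were lower, beside 1.04% and 0.435%. Serpina6 was 5.81-fold higher and reached 109 CPM, beside 126 and 146 CPM in the controls, although with median-ratio scaling it stayed over 2-fold below control (log2 fold change -1.10). Serpina1d was 2.12-fold higher but stayed 6.10-fold below control. Serpina12 was 4.32-fold lower, further from control than with no recovery. Serpina7 was 3.27-fold lower, closer to control than before. With no filter 2 of the 35 were higher and 4 lower, beside 1.28% and 0.791%. These comparisons share libraries with those between the labels, so they are not separate evidence. The total of clade A in OGT-KO was 8069 CPM with no recovery and 8014 CPM after 7 days.

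**Figure D4:**
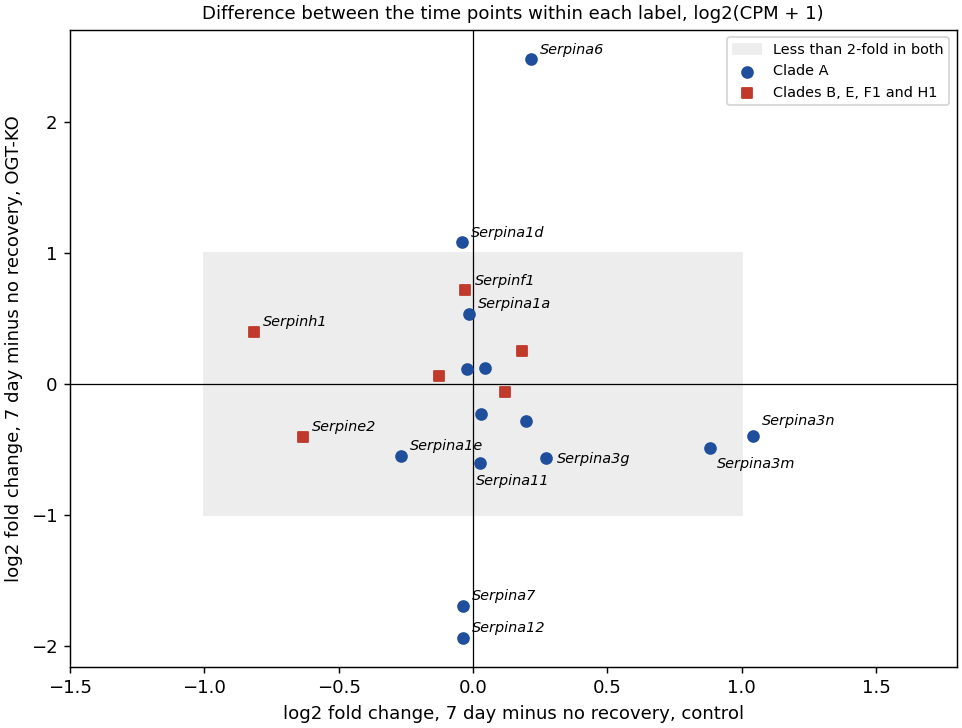
Log2 fold change between the time points, 7 day minus no recovery, in control (horizontal) and in OGT-KO (vertical) for the 20 serpins compared, with clade A as circles and the other clades as squares. Most points lie in the shaded region under 2-fold, while Serpina6 at 2.48 and Serpina1d at 1.08 lie above it, Serpina7 at -1.69 and Serpina12 at -1.94 below it, and Serpina3n at 1.04 to its right.

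The serpins of coagulation and complement, outside the 35, were lower in OGT-KO by smaller ratios than the Serpina1 family. Serpinc1 (antithrombin) had 1814, 1201, 1951 and 1369 CPM, Serpind1 (heparin cofactor II) 473, 195, 445 and 283, Serpinf2 (α2-antiplasmin) 776, 387, 930 and 463, and Serping1 (C1 inhibitor) 874, 453, 868 and 435 CPM. The log2 fold change of Serpind1 with no recovery was -1.27, and Serpinf2 and Serping1 lay at the 2-fold limit with values from -1.005 to -0.95. Angiotensinogen (Agt), a non-inhibitory serpin by fold, had 698, 310, 643 and 419 CPM.

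Proteases that secreted serpins meet were summarized from a list of 14, of which 12 were in the table and 10 were compared. In OGT-KO 6 of the 10 were lower and 1 higher with no recovery, beside 5.69% lower and 24.4% higher of all genes compared. After 7 days 7 were lower and 1 higher, beside 4.27% and 22.9%. Plasminogen (Plg), whose activation the clade E serpins restrain, had 2587, 879, 2814 and 1192 CPM, and prothrombin (F2) had 1872, 943, 1912 and 920 CPM. F10, the target of Serpina10, had 437, 398, 506 and 423 CPM, and Proc, the zymogen of activated protein C, had 564, 241, 584 and 256 CPM. The 1 higher gene was Plat, tissue plasminogen activator and the target of Serpini1, at 0.423, 55.5, 0.300 and 117 CPM. Plat was named after its values were seen, and it passed the filter on level only through the OGT-KO libraries.

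Proteases inside cells, the partners of clade B and Serpina3g, were on a list of 10, of which 9 were in the table and 6 compared. Of the 6, 3 were higher with no recovery and 2 after 7 days, and 0 were lower, beside 24.4% and 22.9% of all genes compared that were higher. Ctsb (cathepsin B) had 574, 1196, 490 and 1068 CPM, Ctsl (cathepsin L) 410, 1230, 570 and 792 CPM and Ctsh (cathepsin H) 194, 209, 191 and 213 CPM. Of 6 cofactors and clearance receptors, 3 were compared and 0 reached 2-fold at either time, while with no filter 3 of the 6 were higher with no recovery (Vldlr, Lrp8 and Plaur) and 2 after 7 days (Vldlr and Plaur), named after their values were seen, beside 33.1% and 32.3% of all listed genes. Vitronectin (Vtn), an adhesive plasma protein, had 2851, 2134, 2969 and 1916 CPM, and Lrp1, the receptor that clears serpin-protease complexes, had 1345, 1196, 1310 and 1347 CPM.

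Collagens and the enzymes that fold them with Serpinh1 were on a list of 18, with 15 compared. Of these 9 were higher in OGT-KO with no recovery and 12 after 7 days, beside 24.4% and 22.9% of all genes compared. None was lower, and the 15 had median log2 fold changes of 2.93 and 3.34. Col1a1 had 20.98, 875, 16.5 and 1192 CPM and Col3a1 had 50.4, 1212, 38.3 and 1549 CPM, whereas the general folding enzymes P4hb (1542, 1662, 1327 and 1782 CPM) and Ppib did not reach 2-fold.

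Of 8 liver regulators of plasma protein genes, 3 were lower in OGT-KO with no recovery, 1 after 7 days and 0 higher. Of all genes compared, 5.69% were lower with no recovery and 4.27% after 7 days. The 3 were Hnf4a, Foxa1 and Nr1i3, and the 1 was Cebpa. Hnf4a had 851, 335, 864 and 458 CPM and Cebpa had 502, 251, 557 and 265 CPM. On a list of 10 acute-phase genes outside the family, 9 were compared, of which 3 were lower and 1 higher at both times. Beside these, 3.74% of all genes compared were lower and 19.2% higher at both times. Hpx had 4702, 4572, 5003 and 4181 CPM and Fgb had 4858, 2773, 8066 and 2734 CPM. Saa1, at 358, 23.8, 498 and 28.1 CPM, and Lcn2, at 14.7, 487, 52.8 and 406 CPM, were named after their values were seen and stood at the low and the high end.

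Markers of several liver cell types also differed between the labels, and in bulk RNA fewer cells of a type and less RNA per cell cannot be told apart. Of all genes compared, 24.4% were higher and 5.69% lower with no recovery, and 22.9% and 4.27% after 7 days. At both times 19.2% were higher and 3.74% lower. The 6 hepatocyte markers summed to 76714, 54506, 88166 and 66119 CPM, and 2 of the 6 were 2-fold lower with no recovery and 3 after 7 days. The 6 had a median log2 fold change of -0.84 with no recovery and -1.001 after 7 days. Albumin (Alb), which gave most of each sum, had 47845, 41362, 54435 and 51507 CPM. That is a smaller relative difference than that of any Serpina1 paralog, but Alb does not stand for all 6 markers. All 10 stellate cell and fibroblast markers were at least 2-fold higher at both times, with sums of 247, 3537, 177 and 4353 CPM. Of 6 cholangiocyte markers compared 5 were higher at both times, with 7 markers summing to 77.1, 1194, 97.0 and 1524 CPM. All 5 Kupffer cell and macrophage markers compared were higher at both times, with 8 markers summing to 159, 570, 61.7 and 420 CPM.

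Of 6 endothelial markers, 3 were higher with no recovery and 1 after 7 days, beside 24.4% and 22.9% of all genes compared, with sums of 162, 282, 118 and 197 CPM. Neutrophil markers summed to 5.50, 29.4, 2.20 and 44.8 CPM over the 4 listed genes. Only 1 was compared and was higher at both times, but it passed the filter on level only through the OGT-KO libraries. With no filter 3 of the 4 were higher with no recovery and 4 after 7 days, beside 33.1% and 32.3% of all listed genes. Mesothelial markers (4 genes, 5.41, 14.1, 4.81 and 23.5 CPM), B cell markers (3 listed genes, 3.25, 16.7, 1.10 and 14.0 CPM) and T and NK cell markers (2 listed genes) stayed below the level needed for a comparison. The mast cell and squamous epithelium markers were not in the table and were not analysed here. No marker in the table was at 0 in any library. The part of these cell types in the serpin results was not tested.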

How the data were processed

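Liver RNA was extracted with TRIzol and made into libraries with the Tecan universal plus mRNA-seq kit, per the labels. The authors deposited CPM (counts of reads per 1000000 of a library's total) in 1 table, for 13903 genes in 4 libraries. The submitters' processing notes name STAR, DESeq2 and GRCm39 without role or version. Counting rules and strand are not given in the sources used here. In each library 100.0% of the CPM values were whole multiples of the value of 1 read (tolerance 0.01 reads), so whole reads were recovered: 21257763 (control) and 22866431 (OGT-KO) with no recovery, 19972699 and 22567395 after 7 days.

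Members were genes named Serpin followed by a, b, e, f, h or i and a number, without Serpinf2. Members and lists were chosen with earlier results of these data known. Fold changes are differences of log2(CPM + 1), which understates changes of low genes. A gene was called at a 2-fold difference given a mean of at least 10 CPM. With 1 pooled library per condition, calls used no p-value, which only the edgeR, DESeq2 and binomial settings below did. Fold ratios are ratios of CPM with exact binomial 95% counting intervals. Values in every library are given for members past the filter and for members below it with at least 30 reads in 1 library and a 2-fold difference at both times. From partner lists, at most 4 genes of highest mean are named, with exceptions stated. Some items that these rules select are not reported here. Lists were proteases, cofactors and receptors, collagen folding, hormone carriers, liver regulators, acute phase and cell type markers.

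Other settings tried were pseudocounts of 0.1 and 10, dropping the filter or raising it to 50 CPM, median-ratio or upper-quartile scaling, an added exact binomial test, and edgeR and DESeq2 fits of label plus time on the recovered reads of all 4 libraries. Calling was tested on simulated reads for 13903 genes (no recovery comparison): of 8968 compared, all 181 genes changed 4-fold were called and 0 unchanged genes, a check that covers counting error only and not variation between mice. Gene coordinates of the files' build are not printed, since the annotation used was GENCODE M21 (GRCm38). Promoter windows (28 of 35 members) were from RefSeq, GRCm38.p6. Python 3.11, numpy 2.4.6, pandas 2.3.3, scipy 1.17.1, matplotlib 3.10.9, R 4.3.3, edgeR 4.0.16 and DESeq2 1.42.0 were used.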

Additional observations from a re-analysis of the deposited data

Results flagged for a closer look

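Serpina3n had a log2 fold change between OGT-KO and control of 0.75 with no recovery and -0.68 after 7 days, opposite directions with counting intervals clear of 0, and between the time points of 1.04 in control and -0.39 in OGT-KO. Serpina3m differed between the time points by 0.88 in control and -0.49 in OGT-KO, and Serpinh1 by -0.82 in control and 0.40 in OGT-KO. Serpina1d differed by -0.040 in control and 1.08 in OGT-KO. Smaller opposite differences between the time points were seen for Serpina10 (0.20 in control and -0.28 in OGT-KO), Serpina3k (0.032 and -0.23) and Serpina1b (-0.023 and 0.11). Each value rests on 1 library per condition, and whether the differences differ between labels or times was not tested.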

How the results depend on the processing

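Of 166 alternatives to the counts, medians and sums by clade and family, 121 stayed within limits (1.5 times for a count), 45 moved and 0 reversed. A count could not be labelled reversed under the rule used. Of 560 alternatives for single serpins 0 turned a called direction, an outcome fixed in advance. Another pseudocount cannot change a sign, and the scalings moved values by less than the 2-fold needed for a call. The absence of reversals is therefore no support for the calls. Median-ratio scaling gave 1 higher clade A serpin with no recovery, 0 after 7 days and 0 at both times, and upper-quartile scaling gave 0 after 7 days and 0 at both times. For clades B, E, F1 and H1 the number higher with no recovery was 11 with no filter, 1 at a mean of at least 50 CPM, 2 with median-ratio and 3 with upper-quartile scaling, after 7 days 8, 1, 3 and 3, and at both times 8, 1, 2 and 3. Between the time points 1 serpin was lower in control with no filter, and in OGT-KO 4 were lower with no filter and 1 at a mean of at least 50 CPM. The median of clades B, E, F1 and H1 was 0.28 with no recovery at a mean of at least 50 CPM, and 0.83 and 0.99 at the 2 times with median-ratio scaling.

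With median-ratio and then upper-quartile scaling, the log2 ratio of the Serpina1 sum was -3.47 and -3.24 with no recovery and -3.12 and -2.92 after 7 days, that of Serpina3 -2.59 and -2.35, then -2.92 and -2.72, and that of Serpinb6 0.80 and 1.04, then 1.04 and 1.24. The Serpinb1 sum had 0.80 and -0.74 with median-ratio scaling. The clade A total had -3.09 and -2.85, then -3.01 and -2.81, and that of clades B, E, F1 and H1 -1.35 and -1.11, then -0.96 and -0.76. Both scalings divided the OGT-KO libraries by larger factors than the controls, as computed from the reads of each library without its label. A higher filter leaves fewer serpins. The binomial test, which compares libraries and not conditions, removed 0 calls.

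The edgeR and DESeq2 fits of label plus time gave counts within 1.5 times of those called at both times. The rules are unlike, since the fits used an adjusted p with no fold threshold and their own scaling, so the likeness is no check on the 2-fold calls. These fits hold time point as a term, and no further pairing could be fitted, since each condition has 1 library and the labels carry no replicate numbers. Depth limits Serpina3a, Serpina5, Serpina9, Serpini1 and the Serpinb1 and lettered Serpinb9 genes, which had under 200 reads in each library.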
